A study of Mus musculus with 6 samples.

Results

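The genes described here are 30 genes of cholesterol and fatty acid synthesis, measured with 42 probes. They are the enzymes that build cholesterol from acetyl-CoA, the proteins that regulate that pathway or move its product, and the enzymes of fatty acid synthesis. A spot was taken when the array annotation named one of these genes, with Sc4mol also looked up under its present symbol Msmo1, and no measured value entered the choice. The arrays held 55681 probes of 36902 named genes or transcripts in all. RNA came from 1G11, an endothelial cell line from the microvessels of C57BL/6NCrLBR mice. The 1G11-SOD3 cells were modified to overexpress SOD3, an antioxidant enzyme that cells secrete, and the 1G11-mock cells were their control. Before RNA was taken, both lines were held for 6 h in conditioned medium of the mouse mammary cancer line N202.1A, and no array came from cells without that medium. Each line was hybridized to 3 single-color Agilent arrays, 1 per biological replicate. Whether 1G11-SOD3 is 1 clone is not given in the sources used here.

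Cholesterol is made in the endoplasmic reticulum and cytosol by a single chain of enzymes. Acetyl-CoA units are joined and reduced to mevalonate, mevalonate is turned into isoprenoid units, these are condensed to squalene, and squalene is closed to lanosterol and trimmed to cholesterol. Fatty acids are made from the same acetyl-CoA. Both chains are controlled by the SREBP transcription factors, encoded by Srebf1 and Srebf2. When sterol is scarce the escort protein SCAP carries them out of the endoplasmic reticulum to be cleaved, and when sterol is plentiful the INSIG proteins hold SCAP back. Insig1 is itself a gene that SREBP switches on, as are most of the enzymes. The plasma membrane of endothelial cells is rich in cholesterol-dependent caveolae.

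A rectangle at the center of each array, called the middle below and holding 6606 spots other than controls, read dim on the 1G11-mock arrays. In 128 bright probes printed 10 times with copies in both areas, the copies in the middle differed from the others by a median of -0.67, -0.87 and -2.42 on the log2 scale on 1G11-mock replicates 1 to 3. On the 1G11-SOD3 arrays these medians lay between -0.18 and 0.15. Cyp51 and Scd1 each had their sole probe in the middle and are given apart. The other 28 genes had probes elsewhere, and each is represented by its brightest one. The dimming did not end at the edge of the middle, so each difference is also given after a position adjustment. In it, a smoothed surface of each array's deviations from the spot means was subtracted before quantile normalization. The normalization that followed also moved values, so a position-adjusted value need not differ from the unadjusted one by the surface alone. Fasn on 1G11-mock replicate 3 went from 9.24 to 8.50, where the surface was -0.005. All arrays of a line shared a row of the slide (row 2 for 1G11-mock, row 1 for 1G11-SOD3), and the effects of line and row cannot be told apart.

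**Figure D1:**
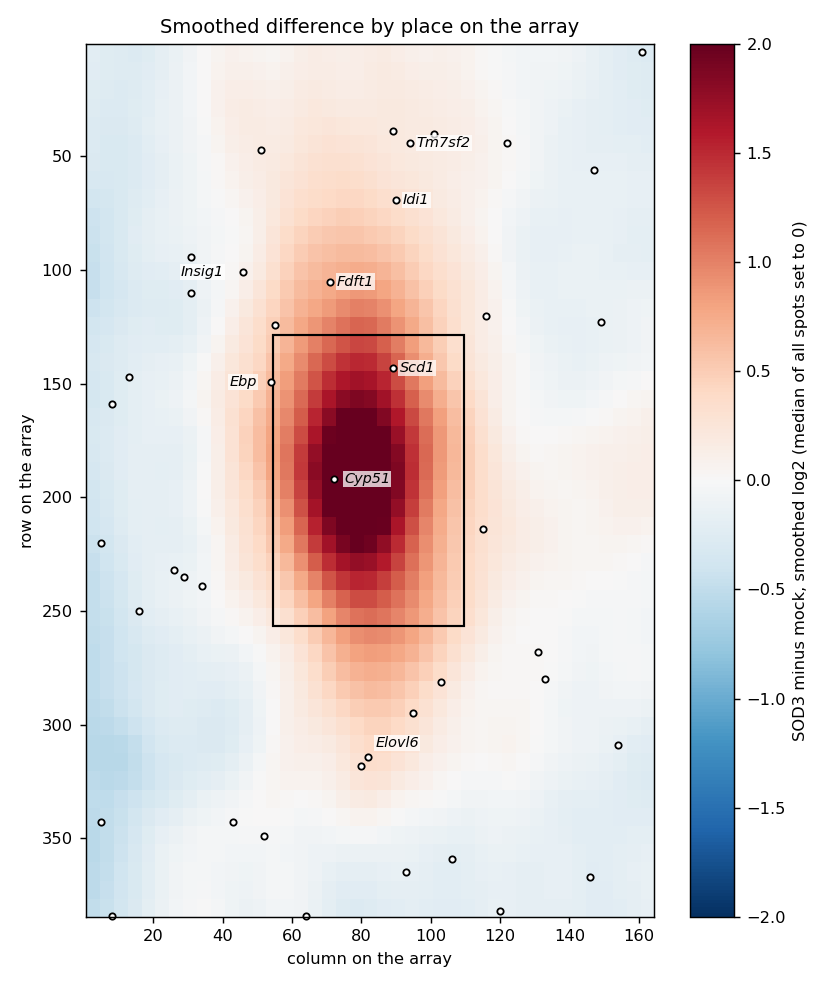
Map of the array, with columns on the horizontal and rows on the vertical axis; color gives the smoothed log2 difference (1G11-SOD3 mean minus 1G11-mock mean, median of all spots set to 0), circles mark the 42 probes of the 30 genes and the rectangle marks the middle. The difference is highest around Cyp51, and the spots of Fdft1 and Idi1 lie above the rectangle in a zone that is still raised, by 0.73 and 0.31.

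A gene passed the test when its Benjamini-Hochberg adjusted p from limma, over all probes, was under 0.05. Levels are normalized log2 intensities. They rank arrays for 1 probe and cannot rank genes, and in bulk RNA more cells with a transcript and more of it per cell cannot be told apart. On the 1G11-mock arrays 34.2 to 36.0% of the spots were well above background, and on the 1G11-SOD3 arrays 38.4 to 43.8%. Sod3 itself, the check of the labels, lay in the middle. It read 13.61, 12.66 and 9.86 on the 1G11-mock arrays and 16.37, 16.30 and 16.26 on the 1G11-SOD3 arrays, and differed by 4.27 ± 0.70 (SE, log2; 19.2-fold, adjusted p = 0.00763). Position-adjusted, the difference was 2.75 ± 0.51 (6.73-fold, adjusted p = 0.0144). Unadjusted for position, it was 3.17 without 1G11-mock replicate 3, and without 1G11-SOD3 replicate 3 (4.32) its adjusted p was just above the threshold of 0.05. Of 13 endothelial markers with a probe outside the middle, Kdr, Eng and Vwf were well above background on all 6 arrays and 7, among them Cdh5, Tie1 and Tek, on none.

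Sequences of 3 promoters are shown because they hold the short motifs known from genes of this pathway. The motifs searched on both strands were TCACNCCAC, a sterol regulatory element that SREBP binds; CCAAT, the site of NF-Y; CACGTG, an E-box; and GGGCGG, an Sp1 site. The RefSeq table (GRCm38.p6) held windows of 24 of the 30 genes, and the 250 bases before each transcription start were searched. The bases are written from 5′ to 3′ on the gene's strand, and capitals mark motif matches, none of which overlap. Idi1, which passed the test, is followed by Insig1, which did not, and by Hmgcs1, the only one of the 24 with a match to TCACNCCAC. Sterol regulatory elements of another sequence, or further from the start, were not searched.
Idi1 (chr13:8885356-8885605, + strand): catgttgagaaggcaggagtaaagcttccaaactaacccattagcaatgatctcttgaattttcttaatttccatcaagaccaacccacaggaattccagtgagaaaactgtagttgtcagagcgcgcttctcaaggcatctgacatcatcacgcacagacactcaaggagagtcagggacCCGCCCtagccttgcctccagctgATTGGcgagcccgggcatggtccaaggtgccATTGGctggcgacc
Insig1 (chr5:28071162-28071411, + strand): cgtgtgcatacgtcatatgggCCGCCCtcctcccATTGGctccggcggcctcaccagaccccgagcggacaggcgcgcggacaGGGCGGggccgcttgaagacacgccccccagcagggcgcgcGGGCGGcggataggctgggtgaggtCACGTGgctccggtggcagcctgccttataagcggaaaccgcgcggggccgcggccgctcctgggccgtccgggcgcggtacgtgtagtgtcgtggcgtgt
Hmgcs1 (chr13:119690101-119690350, + strand): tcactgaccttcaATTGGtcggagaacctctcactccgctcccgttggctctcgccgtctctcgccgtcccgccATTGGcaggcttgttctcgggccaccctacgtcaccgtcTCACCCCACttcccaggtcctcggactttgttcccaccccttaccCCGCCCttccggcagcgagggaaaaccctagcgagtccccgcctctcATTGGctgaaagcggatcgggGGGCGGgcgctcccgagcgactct
A gene was counted when any of its windows held the motif, and Insig2, Dhcr7, Srebf1, Pmvk and Scap had more than 1 window. By this count the CCAAT motif lay in 19 of the 24 genes (79.2%) and in 37.5% of all 27018 genes in the table. GGGCGG lay in 20 (83.3%), against 35.4% of all genes. CACGTG lay in 5, against 6.86% of all genes. TCACNCCAC lay in 1 (4.17%), against 1.23% of all genes. These are matches of letters, not measured sites. The shares among genes well above background alone were not counted. Idi1 held CCAAT 45 and 14 bases before its start, and Hmgcs1 held TCACNCCAC 137 bases before its start, between CCAAT matches at 176 and 45.

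Of the 28 genes outside the middle, 2 passed the test, Idi1 and Fdft1. Both were higher in 1G11-SOD3 cells, by more than 2-fold, and no gene passed in the other direction. Over all 33861 genes tested outside the middle, 0.886% passed as higher and 1.53% as lower. Before the Benjamini-Hochberg adjustment, 8 of the 28 had a p under 0.05 as higher and 1 as lower, against 5.17% and 8.74% of all genes. The difference was above 0 in 20 of the 28 (71.4%), with a median of 0.24 on the log2 scale. The median over all genes was -0.06, with 43.3% above 0. Since 27 of the 28 were well above background on every array, the 12443 genes for which this also held give a closer background, with a median of -0.16 and 36.0% above 0. Of these bright genes, 1.44% passed as higher and 3.57% as lower. Before the adjustment, 7.32% of them had a p under 0.05 as higher and 17.1% as lower.

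The 3 arrays of one line did not overlap those of the other in 9 of the 28 genes. In 7 of them (25.0%) all 1G11-SOD3 arrays were higher, against 8.42% of all genes, and in 2 (7.14%) all were lower, against 12.2% of all genes. Of the bright genes, 8.37% were higher throughout and 20.8% lower throughout. The members that were higher throughout were Acat2, Idi1, Fdft1, Tm7sf2, Nsdhl, Ebp and Elovl6, and those that were lower throughout were Scap and Insig1. The differences of the 28 genes ran from -0.84 (Insig1) to 1.53 (Fdft1). In 13 of them the 95% interval stayed within 2-fold in both directions, whereas in 11, Idi1 and Fdft1 among them, it reached beyond a 2-fold increase and in 4 beyond a 2-fold decrease.

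The position adjustment, together with the normalization after it, moved the list, and the other genes, upward. With it, the difference was above 0 in 24 of the 28 genes (85.7%) and the median was 0.35. All genes then had a median of 0.08 with 58.5% above 0, and the 12443 bright genes a median of 0.01 with 50.7% above 0. All 1G11-SOD3 arrays then lay above all 1G11-mock arrays in 12 of the 28 genes (42.9%), against 17.5% of all genes and 14.3% of the bright ones. Only Fdft1 passed the test, against 1.67% of all genes as higher and 1.16% as lower. The list's median thus stayed above that of the other genes, while fewer of its members passed.

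**Figure D2:**
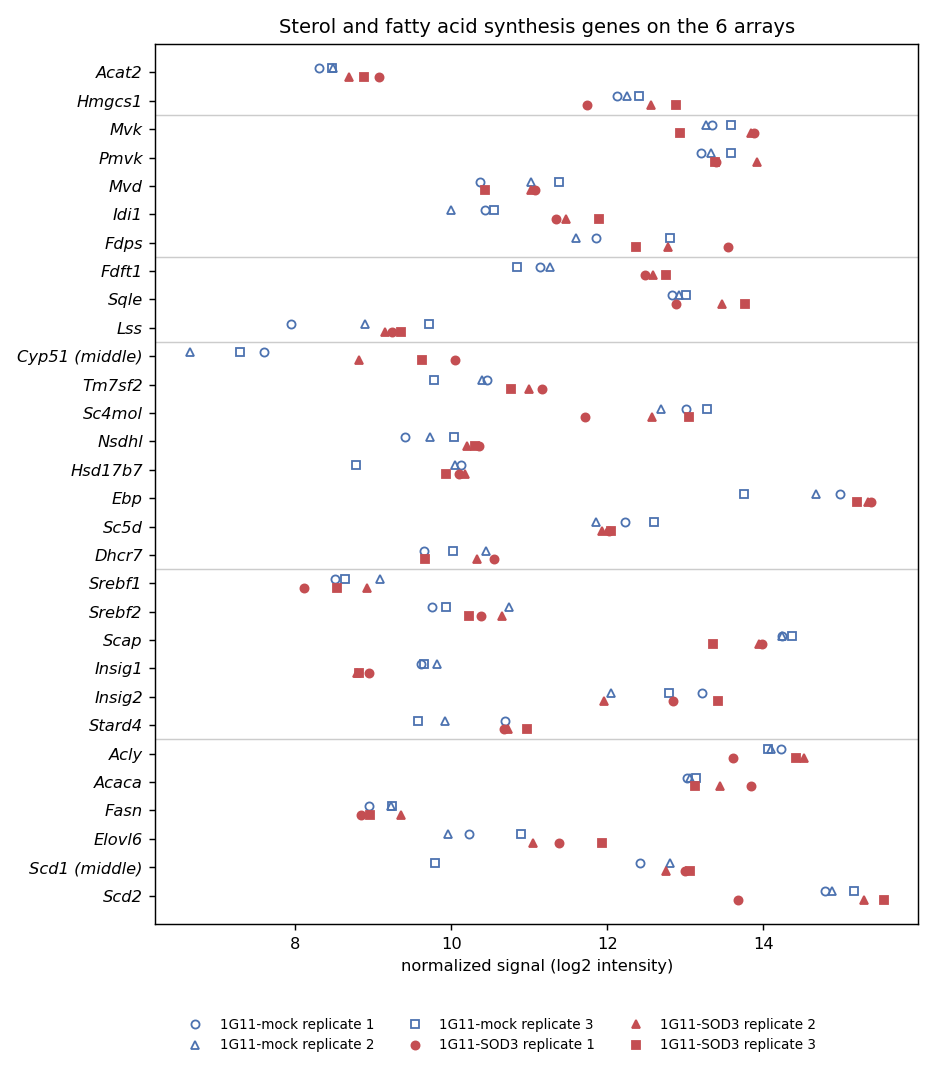
Normalized log2 signal (horizontal axis) of the 30 genes (vertical axis) on each of the 6 arrays, in pathway order with lines between role groups; open blue symbols are 1G11-mock and filled red symbols 1G11-SOD3 arrays, and the symbol shape gives the replicate number. The red symbols of Idi1, Fdft1, Tm7sf2 and Elovl6 lie to the right of all the blue ones, and those of Insig1 to the left.

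**Figure D3:**
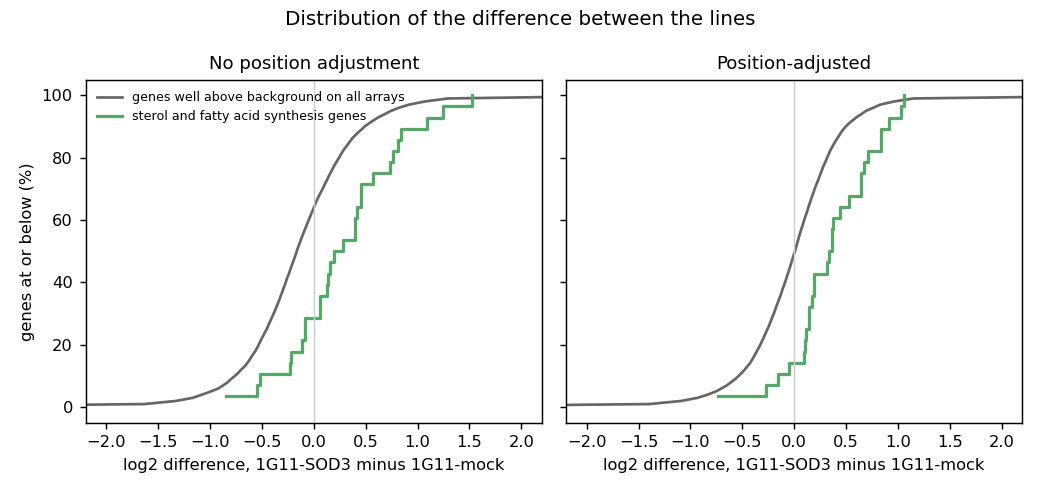
Cumulative share of genes (vertical axis, %) at or below a log2 difference between the lines (horizontal axis), for the 28 synthesis genes outside the middle (green steps) and the 12443 genes well above background on all arrays (gray line), without and with position adjustment. The green steps lie to the right of the gray line on both sides, with medians of 0.24 against -0.16 and 0.35 against 0.01.

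The entry of acetyl-CoA was represented by 2 genes, neither of which passed. Acat2, the cytosolic thiolase that joins acetyl-CoA units, read 8.30, 8.49 and 8.47 on the 1G11-mock arrays and 9.07, 8.69 and 8.88 on the 1G11-SOD3 arrays. The lines did not overlap, but the difference of 0.46 ± 0.22 (SE) had an adjusted p of 0.374, and of 0.0642 after position adjustment (0.84 ± 0.23). Hmgcs1, the synthase of the next step, differed by 0.13 ± 0.29 (adjusted p = 0.891). Its 1G11-mock arrays spanned 12.13 to 12.41 and its 1G11-SOD3 arrays 11.73 to 12.88, so the 1G11-SOD3 values lay on both sides.

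Idi1 was the gene of the mevalonate branch that passed. It encodes isopentenyl diphosphate isomerase, which interconverts the pair of isoprenoid building blocks. It read 10.44, 9.99 and 10.54 on the 1G11-mock arrays and 11.34, 11.47 and 11.89 on the 1G11-SOD3 arrays. Every 1G11-SOD3 array was above every 1G11-mock array. The difference was 1.24 ± 0.25 (SE), a 2.36-fold higher level, with a 95% interval from 0.69 to 1.79 and an adjusted p of 0.0222. After position adjustment the difference was 1.06 ± 0.30 and the lines still did not overlap, but the adjusted p was 0.0742. The call also depended on single arrays, as the adjusted p was 0.0937 without 1G11-mock replicate 2, 0.0601 without 1G11-SOD3 replicate 2 and 0.0896 without 1G11-SOD3 replicate 3. Across the 6 arrays left out in turn the difference stayed between 1.08 and 1.35.

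None of the other 4 genes of this branch passed. Fdps, which makes farnesyl diphosphate, read 11.86, 11.60 and 12.80 in 1G11-mock and 13.54, 12.78 and 12.37 in 1G11-SOD3 cells. Its 1G11-SOD3 replicate 3 lay below 1G11-mock replicate 3, and the difference of 0.81 ± 0.36 had an adjusted p of 0.338. After position adjustment the lines separated, at 1.03 ± 0.31 (adjusted p = 0.0922). The mevalonate kinases Mvk and Pmvk and the decarboxylase Mvd differed by 0.15, 0.19 and -0.08, with adjusted p from 0.776 to 0.934. After position adjustment these were 0.65, 0.44 and 0.19 (adjusted p from 0.149 to 0.688), and for Mvk the lines then did not overlap. Without the adjustment, a second probe gave 0.41 for Mvk and -0.30 for Pmvk, and neither passed.

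At the step to squalene, Fdft1 had the largest difference of the 28 genes outside the middle. Fdft1 encodes squalene synthase, which commits farnesyl diphosphate to sterols. Its probe is shown since the call rests on it. On the array's own annotation, which names no genome build, it is placed at chr14:63765750-63769990 on the - strand, and since this span of 4241 bases exceeds the 60 bases of the probe, it crosses an intron.
Fdft1 probe: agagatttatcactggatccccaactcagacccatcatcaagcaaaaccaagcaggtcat
It read 11.14, 11.26 and 10.84 on the 1G11-mock arrays and 12.48, 12.59 and 12.75 on the 1G11-SOD3 arrays. The gap between the lines was wider than the range within either. The difference was 1.53 ± 0.22 (SE), or 2.88-fold, with a 95% interval from 1.03 to 2.02 and an adjusted p of 0.00419. It passed with any 1 of the 6 arrays left out (adjusted p from 0.00973 to 0.0265). The spot lies in row 105 and column 71, above the middle, where the smoothed difference was raised by 0.73, and after position adjustment the difference was 0.91 ± 0.22 (1.88-fold, adjusted p = 0.0474). A second probe of Fdft1 was not well above background on any array (7.52 to 7.82) and differed by 0.11 ± 0.21 (adjusted p = 0.869). Averaged over both probes the gene no longer passed (0.82, adjusted p = 0.0599).

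The other enzymes of this segment did not pass. Sqle, the squalene epoxidase, read 12.83 to 13.01 on the 1G11-mock arrays and 12.88, 13.47 and 13.76 on the 1G11-SOD3 arrays. Only 1G11-SOD3 replicate 1 fell among the 1G11-mock values, and the difference was 0.45 ± 0.26 (adjusted p = 0.476). Lss, which closes the ring to lanosterol, differed by 0.40 ± 0.37 (adjusted p = 0.686), with 1G11-mock arrays from 7.94 to 9.71 that enclosed all 3 1G11-SOD3 arrays.

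**Figure D4:**
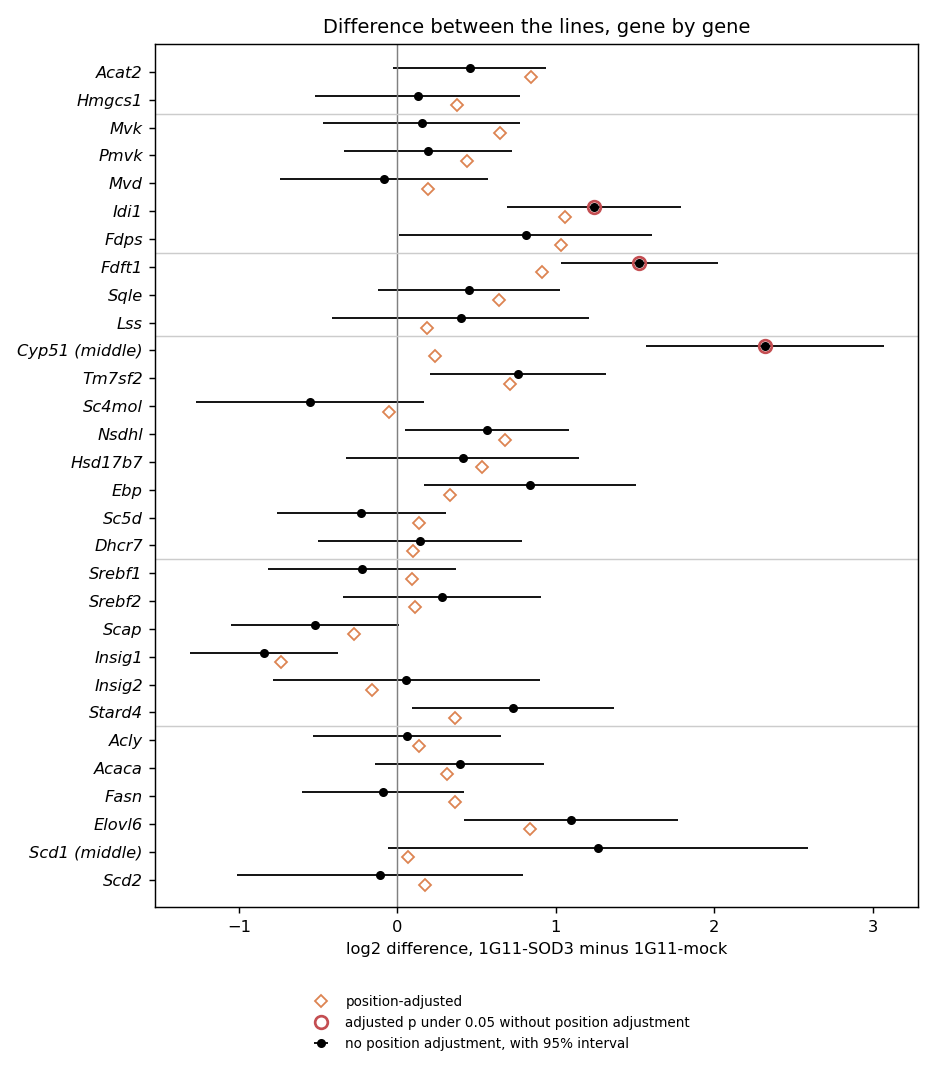
Log2 difference between the lines (horizontal axis, 1G11-SOD3 minus 1G11-mock) for each of the 30 genes (vertical axis); black points and bars are the difference and its 95% interval, red rings mark an adjusted p under 0.05, and open diamonds are the position-adjusted difference. Idi1 and Fdft1 passed outside the middle, and the diamond of Cyp51 lies at 0.24, far from its unadjusted 2.32.

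Past lanosterol, none of the 7 genes outside the middle passed. In 5 of them the difference was above 0, and the median of the 7 was 0.41. Tm7sf2, a sterol reductase, had the same separation in both of its probes, which were well above background on all arrays. Its brighter probe read 10.46, 10.40 and 9.78 in 1G11-mock and 11.16, 10.99 and 10.77 in 1G11-SOD3 cells. Its second probe read 8.45, 8.25 and 8.66, and then 9.23, 9.08 and 8.90. In both the lines did not overlap, with differences of 0.76 ± 0.25 (adjusted p = 0.165) and 0.62 ± 0.23 (adjusted p = 0.216), and of 0.71 and 0.57 after position adjustment.

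Nsdhl, the dehydrogenase that helps remove the methyl groups of lanosterol, also had no overlap, with 9.40, 9.72 and 10.03 in 1G11-mock and 10.35, 10.20 and 10.31 in 1G11-SOD3 cells (0.57 ± 0.23, adjusted p = 0.290). Its second probe, well above background on no array, did not overlap either, at 7.52, 7.47 and 7.67 and then 8.12, 7.75 and 7.70 (adjusted p = 0.597). Ebp, the sterol isomerase, read 14.98, 14.67 and 13.75 on the 1G11-mock arrays and 15.20 to 15.38 on the 1G11-SOD3 arrays. Its spot lies in column 54, at the edge of the middle, and the difference of 0.84 ± 0.30 (adjusted p = 0.212) was 0.33 ± 0.21 after position adjustment. Hsd17b7, a keto reductase, differed by 0.41 with one probe and 0.03 with the other. Its brighter probe read 8.78 on 1G11-mock replicate 3 and 9.93 to 10.17 on the other 5 arrays.

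Sc4mol, the methylsterol oxidase, and Sc5d, a desaturase, had differences below 0, of -0.55 ± 0.33 (adjusted p = 0.494) and -0.23 ± 0.24 (adjusted p = 0.736). For Sc4mol the value came from 1G11-SOD3 replicate 1, at 11.72, while the other 1G11-SOD3 arrays read 12.57 and 13.04 and the 1G11-mock arrays 12.69 to 13.28. After position adjustment the difference was -0.05 for Sc4mol and 0.14 for Sc5d. Dhcr7, which carries out the last reduction to cholesterol, differed by 0.14 ± 0.29 (adjusted p = 0.877).

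The 2 genes in the middle had the largest and the third largest differences of the 30, and for both the difference between the lines and the dimming there cannot be told apart. Of 6435 probes in the middle, 12.1% passed as higher in 1G11-SOD3 cells. Cyp51, the lanosterol demethylase, read 7.59, 6.65 and 7.29 on the 1G11-mock arrays, not well above background on any, and 10.05, 8.81 and 9.63 on the 1G11-SOD3 arrays. Its signal on the 1G11-SOD3 arrays was at least 4.60-fold higher, set against the higher of each 1G11-mock array's own value and its lowest signal well above background (adjusted p = 0.00420). This bound allows for background only, not for the dimming, and is no bound on the transcript. After position adjustment the lines overlapped and the difference was 0.24 ± 0.29 (1.18-fold, adjusted p = 0.669). The 361 probes in the middle with the same pattern, well above background on all 1G11-SOD3 and no 1G11-mock array, went from a median difference of 1.15 to -0.17 with this adjustment.

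Scd1, the stearoyl-CoA desaturase that makes oleic acid, read 12.41, 12.80 and 9.79 on the 1G11-mock arrays and 12.99, 12.75 and 13.06 on the 1G11-SOD3 arrays. Only 1G11-mock replicate 3, the array with the darkest middle, stood apart. The difference of 1.26 ± 0.60 (adjusted p = 0.371) was 0.07 ± 0.39 after position adjustment.

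None of the 6 regulators and transporters passed by their brightest probe. Insig1 came nearest, and in the direction opposite to Idi1 and Fdft1. It read 9.61, 9.81 and 9.65 on the 1G11-mock arrays and 8.94, 8.79 and 8.82 on the 1G11-SOD3 arrays. The ranges within the lines were narrow and did not overlap. The difference of -0.84 ± 0.21 (SE; 1.79-fold lower) had a 95% interval from -1.31 to -0.38 and an adjusted p of 0.0594, and the position-adjusted difference was -0.74 ± 0.21 (adjusted p = 0.0732). It passed in 4 of the alternative settings, among them no background correction (adjusted p = 0.0286) and dim probes left out (adjusted p = 0.0401), so that its place relative to the threshold depends on the processing.

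Scap, the escort protein, had 14.24, 14.24 and 14.36 in 1G11-mock and 13.98, 13.95 and 13.35 in 1G11-SOD3 cells, and differed by -0.52 ± 0.24 (adjusted p = 0.355). The transcripts of the SREBP factors themselves overlapped between the lines. Srebf1 differed by -0.22 ± 0.27 (adjusted p = 0.771) and Srebf2 by 0.28 ± 0.28 (adjusted p = 0.716), while the second probe of Srebf2 gave -0.12. Insig2 differed by 0.06 ± 0.38 and, with its second probe, by -0.23 ± 0.35. After position adjustment the brightest probes differed by -0.27 for Scap, 0.10 for Srebf1, 0.11 for Srebf2 and -0.16 for Insig2, and none passed.

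Stard4, a carrier of sterol between membranes, gave different answers with its probes. The brighter one, in row 124 and column 55 and so next to the middle, read 10.69, 9.92 and 9.57 in 1G11-mock and 10.68, 10.73 and 10.97 in 1G11-SOD3 cells (0.73 ± 0.29, adjusted p = 0.268, and 0.36 after position adjustment). The second one, in row 39, read 7.57, 7.29 and 7.55 in 1G11-mock cells, not well above background, and 8.61, 8.48 and 8.13 in 1G11-SOD3 cells. With it the difference was 0.94 ± 0.23 (1.92-fold), with a 95% interval from 0.43 to 1.44 and an adjusted p of 0.0531. Set against background in the way used for Cyp51, it was also 1.92-fold, which is no lower bound on the transcript. That probe passed after position adjustment (0.97 ± 0.23, adjusted p = 0.0420) and with the replicate number as a block (adjusted p = 0.0484).

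Of the 5 fatty acid synthesis genes outside the middle, none passed. Elovl6, which elongates palmitic acid, read 10.22, 9.95 and 10.89 on the 1G11-mock arrays and 11.37, 11.05 and 11.93 on the 1G11-SOD3 arrays. The lines did not overlap, and the order of the replicate numbers was the same in both. Within replicate numbers the differences were 1.15, 1.10 and 1.04. Position-adjusted, the arrays read 10.43, 10.08 and 10.95 in 1G11-mock and 11.10, 11.18 and 11.71 in 1G11-SOD3 cells. The lines still did not overlap, but the order of the replicate numbers then differed, and the difference was 0.84 ± 0.28 (adjusted p = 0.119). Without the position adjustment, the difference of 1.10 ± 0.31 (2.14-fold) had an adjusted p of 0.0918. With the replicate number as a block its adjusted p was 0.0176, and 1.29% of all genes passed as higher. With that block Idi1 and Fdft1 also passed, so that 3 of the 28 genes did. Elovl6 also passed with the main values scaled to a common 75th percentile (adjusted p = 0.0290) and without 1G11-mock replicate 3 (adjusted p = 0.0479). With the block and the position adjustment together the adjusted p was 0.0570 for Elovl6, 0.0308 for Idi1 and 0.0387 for Fdft1.

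For the main enzymes of fatty acid synthesis the 95% interval stayed within 2-fold in either direction. Acly, which makes cytosolic acetyl-CoA from citrate, differed by 0.06 ± 0.27 (adjusted p = 0.951), with a 95% interval from -0.53 to 0.65. Acaca, the carboxylase, differed by 0.39 ± 0.24 (adjusted p = 0.513), with an interval from -0.14 to 0.93. Fasn, the synthase, differed by -0.09 ± 0.23 (adjusted p = 0.907), with a 95% interval from -0.60 to 0.42. Further probes of Acly and Acaca were not well above background on the 1G11-mock arrays, and none passed. Scd2, a desaturase related to Scd1, read 14.79 to 15.16 in 1G11-mock cells and 13.67, 15.29 and 15.54 in 1G11-SOD3 cells (-0.11 ± 0.41, adjusted p = 0.939). After position adjustment the brightest probes differed by 0.14 for Acly, 0.31 for Acaca, 0.37 for Fasn and 0.17 for Scd2, and none passed.

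The low value of 1G11-SOD3 replicate 1 recurred in genes near 1 edge of the array. Hmgcs1, Sqle, Sc4mol, Fasn and Scd2 all had spots in row 360 or beyond, and 1G11-SOD3 replicate 1 was the lowest of its line in all 5. It was the lowest in 5 of the other 23 genes. In these 5 genes the SD of the 1G11-SOD3 arrays ran from 0.26 to 1.01, and from 0.15 to 0.45 after position adjustment. With the adjustment it rose for Fasn, from 0.26 to 0.37, and fell for the others. Position-adjusted, Hmgcs1 and Sqle were higher in all 1G11-SOD3 arrays, by 0.37 and 0.64, but did not pass (adjusted p = 0.321 and 0.139).

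**Figure D5:**
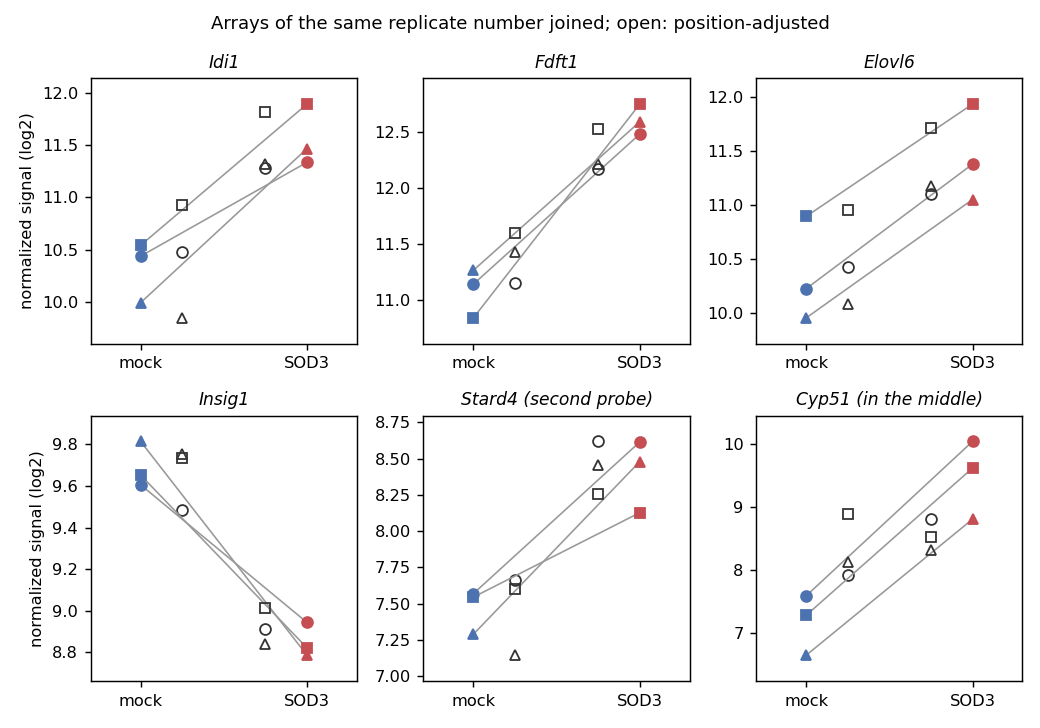
Normalized log2 signal (vertical axes, which differ between panels) of 6 probes in 1G11-mock and 1G11-SOD3 cells; lines join arrays of the same replicate number and open symbols are position-adjusted values. The lines of Elovl6, drawn through values without position adjustment, run parallel (1.15, 1.10 and 1.04). Only in Cyp51 do the open symbols of the 2 cell lines overlap.

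Other genes of lipid metabolism, in lists that exclude the 30, were read from the same test. Most genes of these lists were well above background on all arrays, and of all such bright genes 1.44% passed as higher and 3.57% as lower. Of 22 genes of the isoprenoid branch and sterol regulators outside the middle, 1 passed as higher and none as lower (all genes: 0.886% and 1.53%), with a median of 0.11. This was Tmem97, a sterol-binding membrane protein, at 11.38, 12.03 and 12.74 in 1G11-mock and 13.68, 13.98 and 13.14 in 1G11-SOD3 cells (1.56 ± 0.34, adjusted p = 0.0339). All 1G11-SOD3 arrays were higher. Its adjusted p was up to 0.124 with an array left out, and 0.0462 after position adjustment.

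Of 23 genes of cholesterol uptake, transport and efflux, 3 passed as lower and none as higher (all genes: 1.53% and 0.886%), with a median of -0.04. Abca1, the pump that exports cholesterol from cells, read 11.13, 10.20 and 11.33 in 1G11-mock and 9.55, 9.25 and 9.45 in 1G11-SOD3 cells (-1.47 ± 0.30, 2.78-fold lower, adjusted p = 0.0221). The related transporter Abca7 differed by -1.15 ± 0.25 (adjusted p = 0.0285) and Lrp1, a receptor for lipoproteins and other ligands, by -1.13 ± 0.24 (adjusted p = 0.0293). In all 3 genes the arrays of the lines did not overlap. After position adjustment Abca1 and Lrp1 passed (adjusted p = 0.0367 and 0.0471) and Abca7 did not (adjusted p = 0.0918). Cav1, which encodes the main protein of caveolae, then passed as higher, at 1.10 ± 0.20 (adjusted p = 0.0132, against 0.89 and 0.0549 without the adjustment), and is named after its value was seen. With an array left out the adjusted p of these genes reached 0.0838 to 0.146.

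Of 38 genes of fatty acid elongation, desaturation and use, 3 passed as lower and none as higher (all genes: 1.53% and 0.886%), with a median of 0.02. Plin2, which coats lipid droplets, read 14.26, 14.67 and 14.59 in 1G11-mock and 12.37, 13.48 and 13.32 in 1G11-SOD3 cells (-1.45 ± 0.30, 2.74-fold lower, adjusted p = 0.0250). Acadl, an enzyme of fatty acid oxidation, differed by -1.01 ± 0.24 (adjusted p = 0.0448). The third was Cpt1a, which brings fatty acids into mitochondria, at -0.92 ± 0.21 (adjusted p = 0.0360). It was under 2-fold and is named after its value was seen. Only Plin2 passed after position adjustment (adjusted p = 0.0116). With an array left out the adjusted p of the 3 genes reached 0.111 to 0.147.

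Markers of other cell types were read beside these results. Of 10 fibroblast or mural markers, 6 passed as higher in 1G11-SOD3 cells, among them Col1a1 (8.55-fold, adjusted p = 0.00148) and Acta2 (6.14-fold, adjusted p = 0.00107), with a median of 1.35, and their summed log2 level was between 16.21 and 16.24 on the 1G11-mock and between 17.11 and 18.50 on the 1G11-SOD3 arrays. Of 13 endothelial markers, Vwf passed as lower (-1.65) and Egfl7 as higher (1.82), with summed levels of 14.35 to 14.87 and 13.84 to 14.09. After position adjustment Vwf passed (-1.36, adjusted p = 0.0273) and Egfl7 did not (0.96, adjusted p = 0.0794). None of 9 epithelial, 10 leukocyte and 5 adipocyte markers passed. The adipocyte markers, among them Adipoq, were well above background on no array. The part of these shifts in the values of the synthesis genes was not tested.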

How the data were processed

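Single-color Agilent arrays of 3 1G11-mock and 3 1G11-SOD3 RNA samples were analyzed, grouped by their labels. The authors deposited, per array, spot and local background intensity, not normalized between arrays, and a table of log2 values after normexp correction and quantile normalization. That table was recomputed to within 0.005 from median pixel intensities with control spots kept, has column medians of 7.52, and was used as an alternative.

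Control spots were removed, and mean intensities were corrected with normexp (offset of 50), taken to log2 and quantile normalized. Flagged outlier spots were left out, and a probe's spots were averaged separately inside and outside the middle. The lines were compared by limma 3.58.1 in R 4.3.3 with Benjamini-Hochberg adjustment over 55961 rows. The test and the position surface were each run on simulated arrays with independent noise. Those for the test held no dimming and no shared deviation of same-numbered arrays, so that run does not cover these features. Of the probes, 27656 were named by RefSeq accession, 666 by symbol, 86 by an older symbol and 27273 by the file's own name. The position surface was Gaussian-smoothed (SD of 12 rows and 6 columns) over spots well above background on 3 or more arrays, with deviations limited to 3. Among copies of held-out probes outside the middle the SD of the difference went from 0.29 to 0.13 with it. Same-numbered samples shared a slide column and deviated together (r = 0.194, 0.118 and 0.137 over bright probes). Samples of different numbers had r from -0.193 to 0.062. The replicate number was therefore also fitted as a block, although the labels do not say what a number shares.

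The 30 genes, the lists and the tests were chosen with earlier results of these data known. All 30 are described, and of the 3 lists of other lipid genes those past the test at over 2-fold are named, at most 5 per list. The alternatives changed the background correction, normalization, filter, intensity, probe choice, block or position adjustment, or left out 1 array. The number of arrays and the signal over background limit the precision. Python 3.11.15 with pandas 2.3.3, numpy 2.4.6, scipy 1.17.1 and matplotlib 3.10.9 served for tables and figures.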

Additional observations from a re-analysis of the deposited data

How the results depend on the processing

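The number of genes passing outside the middle was 2 of 28, and their median difference 0.24, where a move of 0.08 equals the spread between replicates. The count was 1 with the position adjustment and 2 or 3 under the other settings that kept all arrays, and 1 to 3 with each array left out. The median stayed above 0 in all 24 settings. It was 0.44 with the scanner's processed signal at a common 75th percentile, 0.34 with that percentile as the scale of the main values, 0.33 with cyclic loess, 0.39 with the middle left out before normalization, 0.35 with the position adjustment, alone or with the replicate block (the joint setting was added after seeing the data), 0.15 with a gene's probes averaged, 0.34 with the brightest probe wherever it lies (30 genes), and 0.11 to 0.37 with each array left out. The median over all genes, -0.06 in the reported setting, was -0.43 with the processed signal, -0.33 with percentile scaling and -0.13 with dim probes left out, and the list's median is read against these. Between 18 and 24 of the 28 differences were above 0.

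No passing gene changed direction. Of 672 values of single genes, 39, from 13 genes that passed in neither setting, changed sign. Idi1 lost its call with the processed signal (adjusted p = 0.0755), the position adjustment and 3 of the 6 arrays left out, and Fdft1 with the mean of its probes. Insig1 passed in 4 settings, Elovl6 in 3 (adjusted p = 0.0479 without 1G11-mock replicate 3) and Nsdhl in 1, the processed signal (adjusted p = 0.0416). The replicate block changed the call of no other gene. The causes were not tested. With 3 arrays per line an exact permutation test of 1 gene cannot give a p under 0.1, so single values rest on the spread that limma pools over probes.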
